A study of Mus musculus with 2 samples.

Results

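The secreted BPI-fold genes clustered on distal Chr 2 were described in the heads of newborn mice that carried both copies of that chromosome part from 1 parent. Bpifa1, Bpifa2, Bpifb1, Bpifb3, Bpifb4, Bpifb9a and Bpifb9b, 7 genes in all, were chosen by name, and their probe sets were those that the platform annotation assigns to 1 of these symbols alone. Of the 45101 probe sets on the array 7 met that rule, and they read 5 of the 7 genes, out of 18193 genes that the annotation names. Bpifb1 and Bpifb9b had a pair of probe sets each, Bpifa1, Bpifa2 and Bpifb3 had 1 each, and no probe set was assigned to Bpifb4 or Bpifb9a alone. The members were split into the salivary gene Bpifa2 and the 6 other genes, treated together as genes of the nose.

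Whole newborn heads of 2 genotypes were compared, with 1 Affymetrix expression array per genotype. Both genotypes were offspring of mice with the translocation T(2:9)11H, or T11H, an exchange between Chr 2 and Chr 9. In MatDp(dist2) the mother had contributed both copies of distal Chr 2, the part beyond the breakpoint, and the father both copies of distal Chr 9. In PatDp(dist2) the distal part of Chr 2 was of paternal origin in both copies and that of Chr 9 of maternal origin in both. Each head therefore had a pair of copies of the BPI-fold genes, of maternal origin in one head and of paternal origin in the other. The comparison asks which transcripts differ with the parental origin of these chromosome parts. How many animals stand behind each array, of which sex, and where the breakpoint lies is not stated in the labels. Since each genotype has 1 array, no difference could be set against replicates or tested, and the precision of every value is limited by that number of arrays.

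BPI-fold proteins are named after the bactericidal/permeability-increasing protein of neutrophils, with which they share a fold that binds lipids. The BPIFA proteins have the amino-terminal domain of that fold and the BPIFB proteins have both of its domains. They are secreted onto the wet surfaces of the mouth, nose and upper airways, where they lie at the boundary between epithelium and microbes. Bpifa1, long called Plunc, is an abundant product of the nasal and upper airway lining and its glands. Bpifa2, long called Psp or parotid secretory protein, is a major product of the salivary glands of rodents.

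The signals came from MAS5, the Affymetrix method that summarises the probes of a probe set into an intensity on a linear scale. The highest signals were 22236 and 22895 in MatDp(dist2) and PatDp(dist2), and the medians were 201 and 173. A floor of 187.05, the mean of the medians of both arrays, stood in for detection calls, and 51.6% and 48.3% of probe sets were at or above it. Below, a measured gene is one whose signal reached the floor on 1 array or both. If 1 array fell short of it, the fold is taken against the floor and is a bound, and if both did no fold is given. Nnat, a paternally expressed gene of distal Chr 2, checked the labels. Its signal was 43.1 in MatDp(dist2) and 3927 in PatDp(dist2). Of 15 genes chosen to define tissues of a head, 14 were measured and 13 reached the floor on both arrays. Of these genes 5 were at least 2-fold higher in MatDp(dist2) and 1 in PatDp(dist2), beside 4.43% and 3.47% of all measured genes. The 5 were the lens gene Cryaa, the neuronal genes Tubb3, Gad1 and Dcx, and the cartilage collagen Col2a1, which had 2661 and 1159. The 1 was Mbp, a myelin protein, with 1120 in MatDp(dist2) and 4621 in PatDp(dist2) on its brightest probe set. A dimmer Mbp probe set had the opposite direction, 586 and 383, while its others that reached the floor were higher in PatDp(dist2). Acta1, the skeletal muscle actin, had 17284 and 17717, and Col1a1, the collagen of bone and skin, had 14079.5 and 14256 on its brightest probe set but 2048 and 6972 on its other one. The lens crystallin Cryaa had a signal of 3456 in MatDp(dist2) and of 7.2 in PatDp(dist2), so this lens marker was not above the floor in the latter. The other crystallin gene of the list, Cryab, was higher in PatDp(dist2), with 2887 and 4443 on its brightest probe set. The haemoglobin gene Hba-a1 lay below the floor in both. The part played by such differences in tissue content in the values below was not tested.

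Upstream sequences of the measured members, and of Bpifb9a for its likeness to Bpifb9b, are shown so that gene starts can be compared. Each is the 100 bases just before the start of the gene, on the plus strand, in the RefSeq annotation of GRCm38.p6. They cover chr2:154008176-154008275 for Bpifa2, chr2:154142780-154142879 for Bpifa1, chr2:154307144-154307243 for Bpifb9b, chr2:154257779-154257878 for Bpifb9a and chr2:154162507-154162606 for Bpifa5. Bpifa5 is a family member next to Bpifa1 and is shown for its likeness to it. Capitals mark the letters TATAA, the core of the TATA box that positions the start of transcription in many tissue-restricted genes.
Bpifa2: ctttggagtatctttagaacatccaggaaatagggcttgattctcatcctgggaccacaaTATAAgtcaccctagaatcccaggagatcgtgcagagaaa
Bpifa1: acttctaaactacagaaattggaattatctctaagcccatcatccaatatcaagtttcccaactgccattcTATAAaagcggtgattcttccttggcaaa
Bpifa5: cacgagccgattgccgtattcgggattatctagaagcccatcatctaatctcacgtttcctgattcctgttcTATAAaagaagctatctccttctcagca
Bpifb9b: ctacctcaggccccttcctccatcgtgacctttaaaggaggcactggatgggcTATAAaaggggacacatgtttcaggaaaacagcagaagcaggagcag
Bpifb9a: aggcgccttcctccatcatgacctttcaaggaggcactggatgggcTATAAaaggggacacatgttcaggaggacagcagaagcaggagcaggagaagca

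The letters TATAA stood in the forward direction in 6 of the 9 windows that RefSeq gives for the 7 members, against 7.48% of 32851 windows of the same length over all genes. On the reverse strand they stood in 0 of the 9 windows, against 5.36% over all genes. Bpifb4 was the member with no match, and Bpifb1 and Bpifb3 each had a match in 1 of their 2 windows. Among the other family genes 2 of 9 windows had a forward match. A match of letters is a description and does not show a working site.

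Bpifb9a and Bpifb9b were nearly the same over the 250 bases before their starts, with 230 identical bases in an alignment of 258 columns, or 89.1%. Bpifa1 and Bpifa5 followed with 66.8%, while the median over all 120 pairs of 16 family promoters was 46.2%. The next pair after these reached 51.7%. This likeness is of bases before the starts, outside the transcripts. Whether the probe sets assigned to Bpifb9b also read the Bpifb9a transcript was not analysed here. Values printed for Bpifb9b are to be read as those of the probe sets assigned to it.

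Bpifa2 and Bpifb9b differed between the heads by similar folds in opposite directions, and Bpifa1 differed less. Bpifa2, the salivary member, had a signal of 4782 in MatDp(dist2) and of 15806 in PatDp(dist2), 3.31-fold higher with the paternal duplication. Bpifb9b had 3179 in MatDp(dist2) and 936 in PatDp(dist2) on its brighter probe set, 3.40-fold higher with the maternal duplication. At least 2-fold higher in MatDp(dist2) was 1 of 3 measured members, against 4.43% of all 12483 measured genes, and 1 of 3 was at least 2-fold higher in PatDp(dist2), against 3.47%. Among 4690 genes with a mean signal of at least 1000, a range that holds these 3 members, the shares were 3.01% and 5.31%. Whole heads were measured, so fewer cells of a type and less RNA per cell cannot be told apart.

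**Figure D1:**
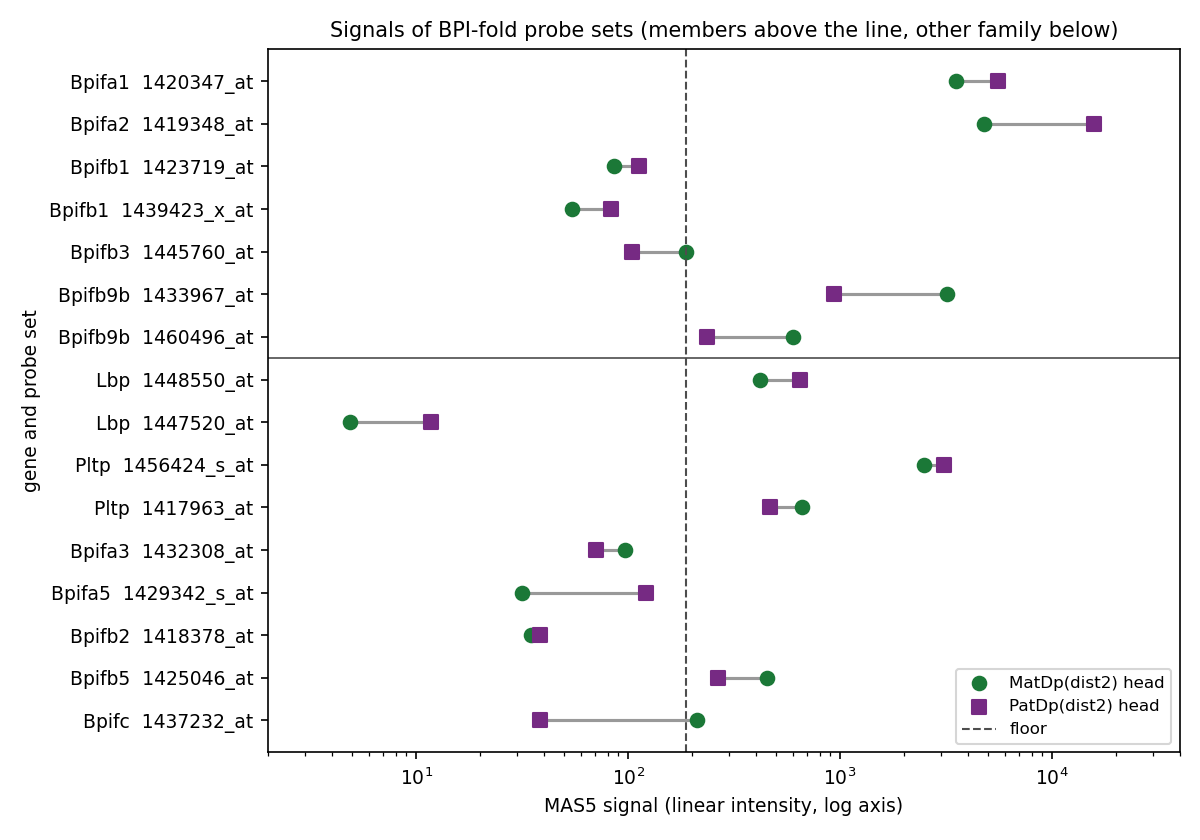
MAS5 signals of every BPI-fold probe set in MatDp(dist2) (green circles) and PatDp(dist2) (purple squares), on a log axis, with 1 array per genotype, no error bars and the floor of 187 as a dashed line. Bpifa2 lies further right in PatDp(dist2), at 15806 against 4782, and both Bpifb9b probe sets lie further right in MatDp(dist2), while Bpifb1 and Bpifb3 stay below the floor on both arrays.

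For Bpifa2 the log2 ratio of MatDp(dist2) over PatDp(dist2) was -1.72. Of 11270 genes that reached the floor on both arrays, 59 genes, or 0.524%, were as far apart or farther in that direction, Bpifa2 included. The members and lists were chosen with earlier results of these data known. The ranks and shares given for them here are therefore descriptions only. The single probe set of Bpifa2, 1419348_at, allowed no comparison with another reading of the same transcript.

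Bpifa1, read by probe set 1420347_at, had a signal of 3521 in MatDp(dist2) and of 5532 in PatDp(dist2). It was 1.57-fold higher in PatDp(dist2), short of 2-fold, and 1057 of the 11270 genes, or 9.38%, lay as far or farther in that direction. Bpifa1 thus shared its direction with Bpifa2 but had a log2 ratio 1.07 nearer to 0, and the fold of Bpifa2 was 2.10 times that of Bpifa1.

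Bpifb9b was the only member with a pair of probe sets above the floor, and they went the same way. Probe set 1433967_at was 3.40-fold higher in MatDp(dist2), a log2 ratio of 1.76. The dimmer probe set, 1460496_at, had a signal of 597 in MatDp(dist2) and of 236 in PatDp(dist2), a 2.53-fold difference and a log2 ratio of 1.34. Both readings passed 2-fold, and their folds differed from each other by 1.34 times. On its brighter probe set Bpifb9b was among 48 of 11270 genes, or 0.426%, that were as far apart or farther in the direction of MatDp(dist2). The change in Bpifb9b relative to Bpifa2 between the heads was 11.2-fold, and relative to Bpifa1 it was 5.34-fold.

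**Figure D2:**
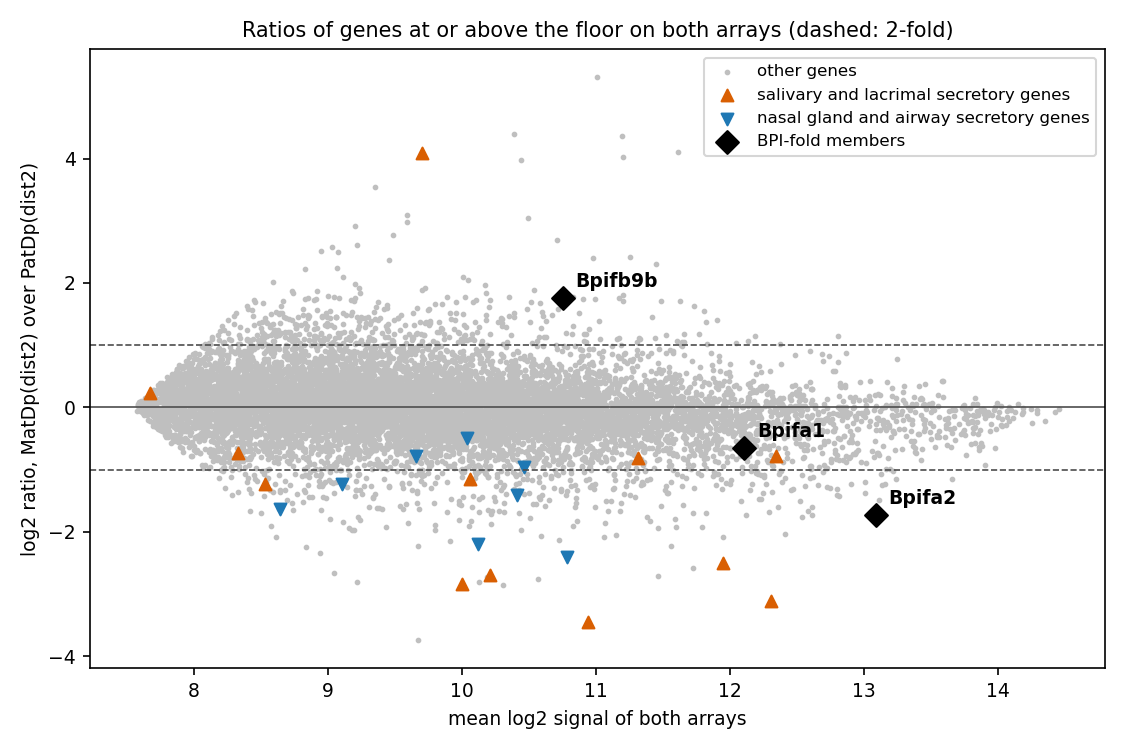
Log2 ratio of the MatDp(dist2) over the PatDp(dist2) signal against the mean log2 signal for each of the 11270 genes that reached the floor on both arrays (grey points, 1 array per genotype), with dashed lines at 2-fold. The members (black diamonds) lie at 1.76 for Bpifb9b, -0.65 for Bpifa1 and -1.72 for Bpifa2, and most salivary and lacrimal genes (orange triangles) and the nasal and airway secretory genes (blue triangles) lie below 0.

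The other members with probe sets were not above the floor in either head. Bpifb1, a long BPI-fold protein secreted by goblet cells and glands of the airways, had a MatDp(dist2) signal of 86.1 against 112 in PatDp(dist2) on 1423719_at. On its other probe set, 1439423_x_at, whose suffix marks probes that can match other transcripts, it had 54.3 and 82.6. Both probe sets read slightly more in PatDp(dist2), within the range where MAS5 signals are noisy, and no fold is given.

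Bpifb3, known from the olfactory lining, had a signal of 186.6 in MatDp(dist2), just under the floor of 187.05, and of 104 in PatDp(dist2). A floor at the 30th percentile of the signals, 75.1, would count it as measured on both arrays, with a 1.79-fold higher signal in MatDp(dist2). The same lower floor would give Bpifb1 a 1.30-fold higher signal in PatDp(dist2). Neither would reach 2-fold.

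The measured nasal members thus did not share a direction, with Bpifa1 higher in PatDp(dist2) and Bpifb9b higher in MatDp(dist2). The median log2 ratio of the 3 measured members was -0.65, that of Bpifa1, against a median of 0.02 over all 12483 measured genes.

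Among other BPI-fold genes none had a fold, or a bound on it, of 2 or more at the floor used here. Of 11 listed family genes that were no members 7 had a probe set and 4 were measured, with 0 called at 2-fold in either direction and a median log2 ratio of -0.06. Over all measured genes the shares called were 4.43% toward MatDp(dist2) and 3.47% toward PatDp(dist2), so 0 of 4 is near them. Bpifb5, a long family member that stands close to Bpifb9b in the cluster, had a MatDp(dist2) signal of 451 against 266 in PatDp(dist2), 1.70-fold higher in the former. Its direction was that of Bpifb9b.

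Lbp, a plasma protein that hands bacterial lipopolysaccharide to immune receptors, had a MatDp(dist2) signal of 419 against 644 in PatDp(dist2) on 1448550_at, a 1.54-fold difference, while 1447520_at lay below the floor on both. Pltp, the phospholipid transfer protein of plasma, gave opposite directions on its probe sets, with 2496 and 3096 on 1456424_s_at and with 661 and 467 on 1417963_at. Its probe sets therefore set no direction for the gene.

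Bpifc, a family gene of Chr 10 and so outside the duplicated parts, had a signal of 212 in MatDp(dist2) and of 38.4 in PatDp(dist2), which bounds the difference at no less than 1.13-fold and does not place it below 2-fold. It was the family gene that passed 2-fold with the floor at the 30th percentile. Bpifa5, the neighbour of Bpifa1 whose upstream sequence is like it, had 31.5 and 121, both below the floor. Bpifa3 had 97.1 and 70.6 and Bpifb2 had 35.0 and 38.5, also below it. Of the Bpif genes on the arrays, Bpifa1, Bpifa2, Bpifb5 and Bpifb9b were thus the ones at or above the floor in both heads, and Bpifc reached it in 1.

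The 7 members lie in a run of 13 Bpif genes, all read from the plus strand in the RefSeq annotation. In order along the chromosome these are Bpifb2, Bpifb6, Bpifb3, Bpifb4, Bpifa6, Bpifa2, Bpifa3, Bpifa1, Bpifa5, Bpifb1, Bpifb5, Bpifb9a and Bpifb9b. Of the 4 measured genes in this run, Bpifa2 and Bpifa1, in places 6 and 8, were higher in PatDp(dist2). Bpifb5 and Bpifb9b, in places 11 and 13, were higher in MatDp(dist2). Direction thus changed once along the run among the measured genes, between Bpifa1 and Bpifb5. This order depended on the floor of 187.05. At the lower floor of 75.1, Bpifb3 (186.6 and 104.1) and Bpifa3 (97.1 and 70.6) would count as higher in MatDp(dist2). They stand in places 3 and 7, on either side of Bpifa2. Bpifa5 and Bpifb1, in places 9 and 10, would count as higher in PatDp(dist2). Direction would then change more often along the run. Cdk5rap1, which encodes an enzyme that modifies mitochondrial transfer RNA, lies between Bpifb1 and Bpifb5 and is not of the family. Its signals were 283 in MatDp(dist2) and 373 in PatDp(dist2), a 1.32-fold difference.

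The genes around the cluster lay closer together between the heads than Bpifa2 and Bpifb9b did. Of 15 listed genes in or near the cluster 10 were measured, all of them on both arrays, and 0 were at least 2-fold apart in either direction. Over all measured genes 4.43% were at least 2-fold higher in MatDp(dist2) and 3.47% in PatDp(dist2). A count of 0 among 10 genes is near these shares. The log2 ratios of the 10 neighbours ran from -0.42 to 0.61 with a median of 0.11. Nol4l had a MatDp(dist2) signal of 1029 against 673 in PatDp(dist2), 1.53-fold apart and the farthest of the 10. Mapre1, which encodes a protein of growing microtubule ends, had 5368 and 4866, and Chmp4b, a subunit of the membrane-remodelling ESCRT machinery, had 5043 and 5295. Dnmt3b, a DNA methyltransferase, had 273 and 326 on its brighter probe set and the opposite direction, 219 and 115, on the other, and Commd7 had 1108 and 982. Asxl1, with 1681 and 1588, Cbfa2t2, with 1216 and 1087, E2f1, with 361 and 290, and Pxmp4, with 758 and 1014, were the rest of the list that was measured besides Cdk5rap1.

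The labels do not place the breakpoint, and the cluster was taken as part of distal Chr 2 by its chromosome position. It lies between a pair of imprinted loci of distal Chr 2, that of H13 and Mcts2 on one side and that of Nnat and Blcap on the other. Of 172 RefSeq genes from H13 to Nnat 75 were measured. Outside the Bpif genes, 3 of 71 measured genes were at least 2-fold higher in MatDp(dist2) and 4 in PatDp(dist2). Over all measured genes the shares were 4.43% and 3.47%, so these counts are near those of genes in general. H13, Mcts2, Blcap and Nnat made up 4 of the 7 genes at least 2-fold apart in this stretch. The remaining 3 were Acss2, an acetyl-CoA synthetase, with a MatDp(dist2) signal of 659 against 2160 in PatDp(dist2), Procr, the receptor of protein C, with 216 and 535, and Mmp24, a membrane-bound metalloproteinase, with 707 and 295. Their folds were 3.28 and 2.47 toward PatDp(dist2) and 2.39 toward MatDp(dist2). Bpifa2 and Bpifb9b, at 3.31-fold and 3.40-fold, lay farther apart between the heads than these 3 and less far than H13, which was 4.74-fold higher in MatDp(dist2). The median log2 ratio of the 71 genes was 0.07.

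**Figure D3:**
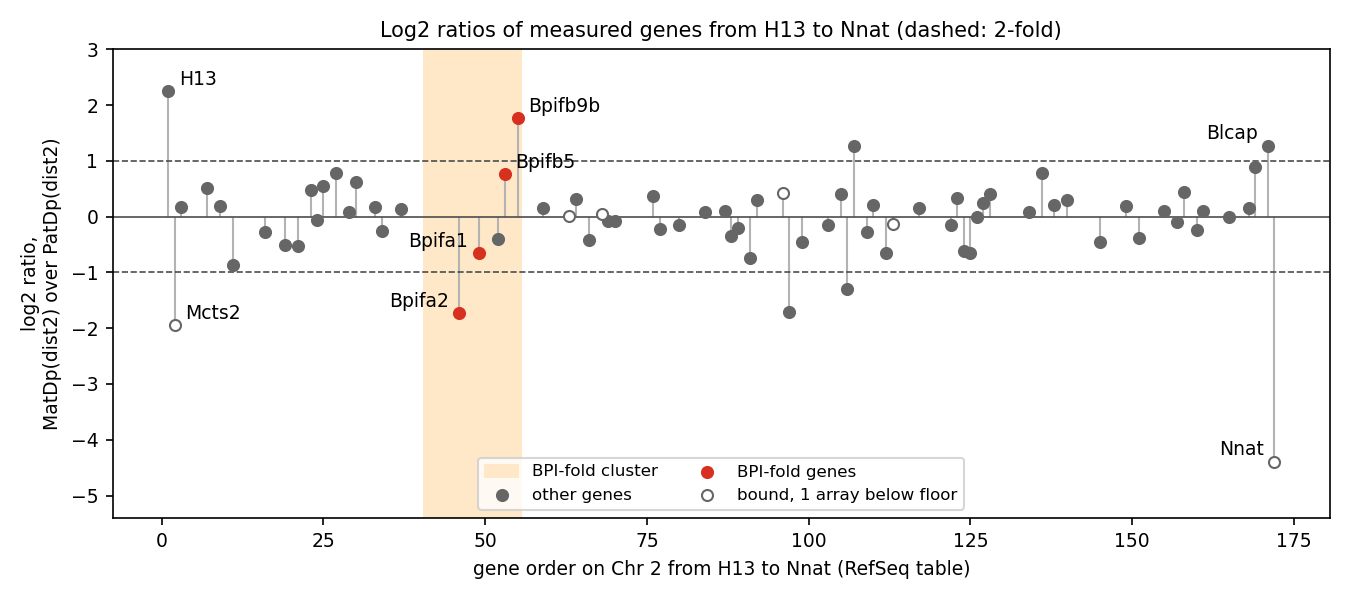
Log2 ratio of each measured gene from H13 to Nnat against its place in the order of genes on Chr 2 in the RefSeq table, with the BPI-fold cluster shaded, Bpif genes in red and bounds as open circles (1 array per genotype, dashed lines at 2-fold). Bpifa2 and Bpifa1 point down at -1.72 and -0.65, Bpifb5 and Bpifb9b point up at 0.76 and 1.76, and the largest ratio of the stretch is the bound of -4.39 for Nnat.

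Secretory genes of salivary and lacrimal glands were mostly higher in PatDp(dist2), the direction of Bpifa2. Of 27 listed genes 21 had a probe set and 19 were measured, 10 were at least 2-fold higher in PatDp(dist2) and 1 in MatDp(dist2), beside 3.47% and 4.43% of all measured genes. In all, 17 of 19 had the higher signal in PatDp(dist2), with a median log2 ratio of -1.15. Of the 19 genes, 12 reached the floor on both arrays. The other 7 are bounds that reached it in PatDp(dist2) alone, so the floor fixed their direction. Mucl2, Prpmp5 and Scgb2b27, among the 10 called, are such bounds. Car6, a carbonic anhydrase of saliva, had signals of 594 and 6509, an 11.0-fold difference. Prol1, a product of the lacrimal gland, had 1725 and 14930, and its other probe set had 563 and 4593, so both were over 8-fold apart. Smr2, a secreted protein of the submandibular gland, had 3971 and 6810, 1.71-fold.

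Further genes of that list, named after their values were seen, were Pip, a secreted protein of exocrine glands, at 5.69-fold, Klk1, the glandular kallikrein, at 6.49-fold on its brightest probe set but nearly level, at 405 and 369, on 1 of its 4 probe sets, and Lpo, a peroxidase of saliva and tears, at 2.22-fold. The regulator of acinar cells Bhlha15 had a MatDp(dist2) signal of 241 against 567 in PatDp(dist2). Aqp5, the water channel of gland acini, had 156 and 303, a bound of 1.62-fold. Of the 19 measured genes, 8 had a fold toward PatDp(dist2), or a bound on it, as large as that of Bpifa2 or larger. Bpifa2 thus stood inside the range of the list. The signals of the 21 genes summed to 16489.6 in MatDp(dist2) and to 54807 in PatDp(dist2).

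Salivary genes did not all follow. Dcpp1, a secreted protein of the sublingual gland, was 17.0-fold higher in MatDp(dist2), with signals of 3443 and 203, while its relative Dcpp3 had 1920 in that head and 3390 in PatDp(dist2). The saliva enzyme Amy1 had 221 and 188. These are close to the floor and 1.17-fold apart. Dcpp and kallikrein genes have close relatives, and no attempt was made to tell apart their transcripts on these probe sets.

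The measured secretory genes of nasal glands and airway lining went the way of Bpifa1, and Bpifb9b went the other way. Of 24 listed genes 18 had a probe set and 10 were measured, 6 at least 2-fold higher in PatDp(dist2) and 0 in MatDp(dist2), with a median log2 ratio of -1.32. Over all measured genes the shares were 3.47% and 4.43%. All 10 measured genes had the higher signal in PatDp(dist2), and 8 of them reached the floor on both arrays. Mup5 (155 and 286) and Agr2 (183 and 511.5) reached it in PatDp(dist2) alone, so the floor fixed their direction. Agr2, a bound, is among the 6 called. Genes of the list below the floor on both arrays had no common direction. The secretoglobins Scgb3a2 (signals 769 and 4061), Scgb3a1 (520 and 2377) and Scgb1a1 (227 and 707), small secreted proteins of airway club cells and glands, differed the most, by 5.28-fold, 4.57-fold and 3.11-fold. Reg3g, an antibacterial lectin, had 1012 and 1962. The count of 6 was 3 with the floor at the 70th percentile. The signals of the 18 genes summed to 6012 in MatDp(dist2) and to 15869.6 in PatDp(dist2). Of the 10 measured genes 8 were farther apart than Bpifa1 in its direction, and 0 shared the direction of Bpifb9b.

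Odorant-carrying proteins of the nasal glands were mostly not above the floor. Obp1a, Obp2a, Lcn3 and Lcn4, lipocalins of the nose, lay below it on both arrays, as did Bpifb1. Lcn11, a lipocalin gene named after its values were seen, was an exception, with 835 in MatDp(dist2) and 2221 in PatDp(dist2).

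More of the measured genes of the olfactory and vomeronasal neurons were higher in MatDp(dist2), the direction of Bpifb9b, than in PatDp(dist2). Of 9 measured genes of olfactory sensory neurons, 3 were at least 2-fold higher in MatDp(dist2) and 0 in PatDp(dist2), with a median log2 ratio of 0.48. Over all measured genes the shares were 4.43% and 3.47%. The 3 genes were Lhx2, a transcription factor (924 and 253), Gnal, the G protein of odour transduction (1479 and 498 on its brightest probe set), and Gap43, a growth-cone protein (3350 and 1563). Each of them is also expressed in the brain. Dimmer probe sets of Gnal had 373 and 219, and 260 and 229, short of 2-fold. The count of 3 was 2 with the mean over the probe sets of each gene and 4 with the offset of 100. Omp, the defining protein of mature olfactory neurons, lay below the floor in both heads, at 142 and 122 on its brighter probe set. Ebf2, a transcription factor, and Ric8b were the 2 measured genes with the higher signal in PatDp(dist2). On their brightest probe sets Ebf2 had 1827 there against 1017, and Ric8b had 1143 against 636. Each also had a dimmer probe set with the opposite direction. Of the 7 genes higher in MatDp(dist2), Cnga2 (191 and 36.1) and Stoml3 (363 and 178) are bounds. They reached the floor in MatDp(dist2) alone, so the floor fixed their direction. Adcy3 was nearly level, at 819 and 812, and had the opposite direction, 443.5 and 571, on a dimmer probe set. Of the 9 genes 1, Lhx2, was as far apart as Bpifb9b or farther in its direction. Markers of neurons in general, from the list of head tissues, went the same way. Tubb3, a neuronal tubulin, had a MatDp(dist2) signal of 2853 against 775 in PatDp(dist2), 3.68-fold, Gad1, which makes the transmitter GABA, had 2421 and 709, 3.41-fold, and Dcx, a protein of young neurons, had 4241 and 1259, 3.37-fold. A dimmer probe set of Dcx had 3427 and 339, 10.1-fold. The part of neuronal tissue in the values of the olfactory, vomeronasal and Bpifb9b signals was not tested. The signals of the 11 olfactory genes with a probe set summed to 9241 in MatDp(dist2) and to 6647 in PatDp(dist2).

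Of 4 measured vomeronasal genes, 1 was at least 2-fold higher in MatDp(dist2) and 0 in PatDp(dist2), with a median log2 ratio of 0.78. Over all measured genes the shares were 4.43% and 3.47%. The 1 gene was Gnao1, a G protein found in brain as well, with 1985 and 882. Trpc2, the transduction channel of vomeronasal neurons, had 371 and 242, 1.53-fold, Meis2 had 3937 and 2056, and Gnai2 had 8497 and 8754. A dimmer probe set of Gnai2 had the opposite direction, 2594 and 1994.5. Trpc2 did not reach 2-fold on either probe set, with 244 and 220 on its dimmer one. Vmn2r1, of the same list, lay below the floor in both heads, at 163 and 144. The count of 1 was 0 with the mean over the probe sets of each gene and 2 with quantile normalization or the loess fit. The signals of the 6 genes with a probe set summed to 15021 and 12100.5, of which Gnai2, nearly level between the heads, gave more than any other gene.

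Genes of supporting and ciliated cells of the nose are set here beside all measured genes. Of the latter, 4.43% were at least 2-fold higher in MatDp(dist2) and 3.47% in PatDp(dist2). Of 8 measured detoxifying enzymes and related genes of olfactory supporting cells, 1 was at least 2-fold higher in each head, with a median log2 ratio of -0.14. Fmo1, a monooxygenase, had a MatDp(dist2) signal of 1847 against 4631 in PatDp(dist2), and Sult1c1, a sulfotransferase, had 426 and 155, a bound of 2.28-fold. Cyp2g1, a cytochrome P450 that is largely restricted to the olfactory lining, had 434 and 220, 1.97-fold higher in MatDp(dist2), and Cyp2f2 had 2449 and 2866. Of 7 measured genes of motile cilia 0 reached 2-fold in either direction, near the shares over all genes, and the median log2 ratio was 0.12. Among them Dnaic1, a dynein chain, had 125 and 279, Rsph1 had 257 and 167, Ccdc39 had 403 and 296, and the tubulin gene Tuba1a, which is not particular to cilia, had 19402 and 20759. Foxj1, the master regulator of motile cilia, had 177 and 219. The summed signals were 9817 and 13128 over the 12 supporting-cell genes with a probe set and 21883 and 23212 over the 16 ciliary genes with one, of which Tuba1a gave most. The part played by the amount of each of these tissues in the values of Bpifa1, Bpifa2 and Bpifb9b was not tested.

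**Figure D4:**
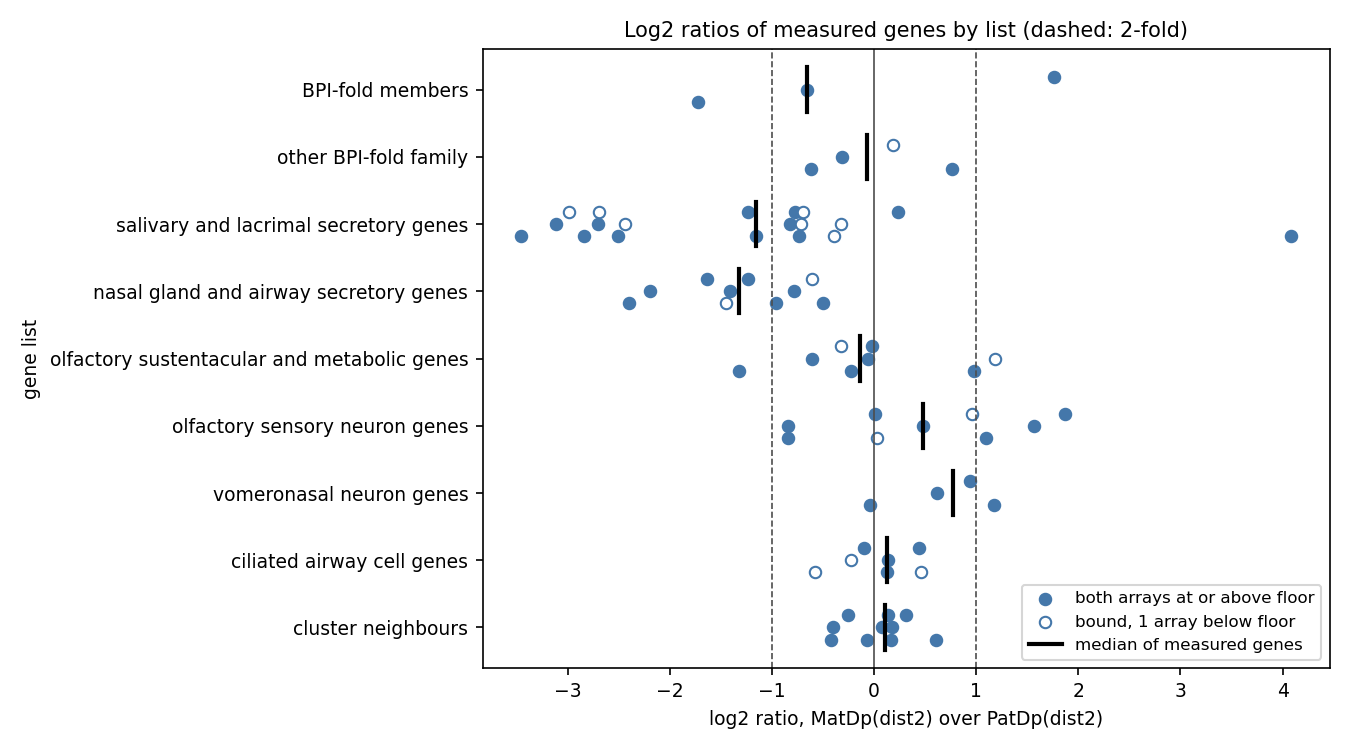
Log2 ratio of each measured gene by list (filled circles for genes that reached the floor on both arrays, open circles for bounds, black bars for medians, dashed lines at 2-fold), from 1 array per genotype. The medians are -1.15 for salivary and lacrimal and -1.32 for nasal and airway secretory genes, 0.48 and 0.78 for olfactory and vomeronasal neuron genes, and 0.11 for the neighbours of the cluster, while the members lie at -1.72, -0.65 and 1.76.

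The genes most like each member were those nearest to it in the plane of both log2 signals, over the 2 arrays. For Bpifa2 these were Etfb (signals 5286 and 14805), Acadm (5111 and 13259) and Smpx (5833 and 13846), at distances of 0.17, 0.27 and 0.34 on the log2 scale. The first pair encode mitochondrial proteins of fatty acid oxidation and the last a small muscle protein. For Bpifb9b the nearest were Gria2, a glutamate receptor subunit (3363 and 982), Runx1t1, a transcriptional corepressor (2924 and 973), and Septin3, a septin of neurons (3506 and 1048), at distances of 0.11, 0.13 and 0.22. For Bpifa1 they were Fermt2, Isca1 and Phb2, at distances of 0.05, 0.06 and 0.07. None of these 9 genes is of the salivary or nasal lists. With 2 arrays, likeness means no more than similar signals in both heads.

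The directions of the 3 measured members held under each of the 8 alternative settings of floor, scaling, offset, fold and choice of probe set. Bpifa2 stayed between 2.92-fold and 3.39-fold higher in PatDp(dist2), Bpifa1 between 1.39-fold and 1.61-fold higher there, and Bpifb9b between 2.93-fold and 3.53-fold higher in MatDp(dist2). Both other floors and the fold of 3 leave these ratios as they are, since the members lay above each floor on both arrays, so the ranges come from the scaling, the offset and the choice of probe set. They describe the processing of the same 2 arrays and say nothing about the spread between animals.

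**Figure D5:**
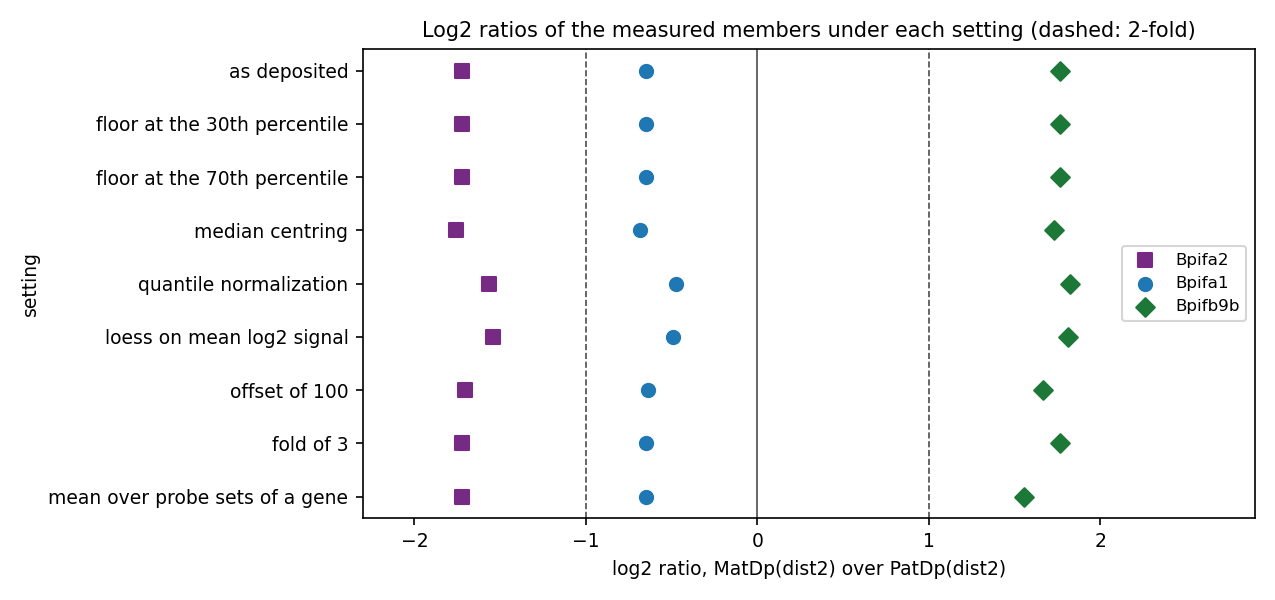
Log2 ratio of MatDp(dist2) over PatDp(dist2) for Bpifa2 (purple squares), Bpifa1 (blue circles) and Bpifb9b (green diamonds) as deposited and under 8 alternative settings, from the same 2 arrays, with dashed lines at 2-fold. Bpifa2 stays between -1.76 and -1.54, Bpifa1 between -0.69 and -0.48 and Bpifb9b between 1.55 and 1.82.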

How the data were processed

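The authors deposited MAS5 signals, which are linear intensity values, for 45101 probe sets on 2 arrays. MAS5 and GCOS are named in the submitters' processing notes, with no version given. With 2% of probe sets trimmed at each end, both arrays had a mean of 500.002, so the deposited signals had been brought to a common trimmed mean. Only log2 was applied to them. MAS5 subtracts mismatch probes and is noisy at low signals.

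After 64 control probe sets were left out, 34945 had 1 gene symbol, and 34741 of these had their gene ID in the RefSeq table of GRCm38.p6. The 932 with several symbols and the 9160 with none were not used. Each of 18193 genes is its probe set of highest mean log2 signal, except that every probe set of the BPI-fold genes is given. Gene order and upstream sequences come from RefSeq on GRCm38.p6, matched by symbol. The deposited values name no build. All 7 members had an upstream sequence. Promoters were aligned globally in Biopython 1.88 with scores of 1 for a match, -1 for a mismatch, -3 to open and -1 to extend a gap. Ratios were computed with pandas 2.3.3 and numpy 2.4.6, and the loess fit, with a span of 0.3, with statsmodels 0.14.6.

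The text names every BPI-fold probe set, every measured neighbour, and, of each other list, the 3 measured genes farthest apart and the 2 brightest, plus the 3 genes nearest to each measured member. Genes outside that rule were chosen after their values were seen. The members and lists were chosen with earlier results of these data known.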

Additional observations from a re-analysis of the deposited data

How the results depend on the processing

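The count of members at least 2-fold apart, 1 in each direction, stayed the same under all 8 alternatives, which were floors at the 30th and 70th percentile, median centring, quantile normalization, a loess fit, an offset of 100, a fold of 3 and the mean over probe sets. At the 30th percentile floor, the count higher in MatDp(dist2) became 1 in place of 0 for the other BPI-fold family, as it also did with the offset of 100, and 5 in place of 3 for olfactory neurons, and the count higher in PatDp(dist2) became 1 in place of 0 for ciliated cells. At the 70th percentile floor, 3 in place of 6 nasal secretory genes were higher in PatDp(dist2) and 0 in place of 1 supporting-cell genes in MatDp(dist2). At a fold of 3, these counts were 3 and 0, that of supporting-cell genes higher in PatDp(dist2) was 0, and 1 olfactory and 0 vomeronasal neuron genes were higher in MatDp(dist2). The vomeronasal count was 2 with quantile normalization and the loess fit, and 0 with the mean over probe sets. A higher floor leaves fewer genes measured and a higher fold calls fewer; the cause of the other moves was not tested. Over all measured genes, those at least 2-fold higher in MatDp(dist2) numbered 553 as deposited, 833 and 266 at the lower and higher floors and 146 at a fold of 3, and those higher in PatDp(dist2) numbered 433, 552, 315 and 100, so that more were higher in PatDp(dist2) than in MatDp(dist2) at the higher floor. No paired analysis was possible because each genotype has 1 array. Signals near the floor, such as those of Bpifb1 and Bpifb3, limit what can be read of these members.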
